A study of Mus musculus with 22 samples.

Results

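The miR-200 family was followed through the fallopian tubes, tumors and plasma of mice that develop fallopian tube-derived cancer. Its members were chosen by name: the probes for mmu-miR-200b, mmu-miR-200a, mmu-miR-429, mmu-miR-200c and mmu-miR-141, 5 of the 626 probes on the panel, 60 of which were controls or not for mouse miRNAs, with no star strand of these hairpins among them. miRNAs had been counted with NanoString nCounter, which counts single molecules through coloured barcodes without amplification, in 22 samples. The groups were uninduced control fallopian tubes (CT, n = 5), doxycycline-induced fallopian tubes (FT, n = 5), metastatic tumors (M, n = 5), plasma of control mice (CS, n = 3) and plasma of tumor-bearing mice (TS, n = 4).

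In this model doxycycline switches on Cre recombinase under control of the Pax8 promoter, which is active in the secretory cells of the tubal epithelium, and Cre then recombines Brca1 or Brca2 together with other floxed alleles. The controls carried floxed alleles without doxycycline. CT1 and CT3 were Brca1 fl/fl, CT2 was Brca1 fl/+, CT4 was Brca2 fl/fl and CT5 was Brca2 fl/+. FT1, FT3 and FT5 were Brca2 -/+, FT2 was Brca1 -/- and FT4 was Brca2 -/-. M1 and M3 were both Brca2 -/-, M2 and M6 were both Brca1 -/+, and M4 was Brca2 -/+. Samples alike at Brca1 or Brca2 could differ at the other alleles. M6 was an ovarian tumor. Plasma CS2, CS3 and CS4 was drawn from the same animals as CT2, CT3 and CT4, and TS1 to TS4 from those of FT2 to FT5 in that order. The sources used here do not give the strain or the ages, nor which metastases shared a mouse with each other or with an induced tube, so the p-values treat as separate samples some that may share an animal.

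The miR-200 family is a set of closely related miRNAs made in epithelial cells, where it keeps down the transcription factors Zeb1 and Zeb2. These factors repress E-cadherin and the miR-200 genes themselves, so the pair forms a switch between the epithelial and the mesenchymal state. A miRNA recognises its targets mainly through its seed, the bases near its 5′ end.

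The mature sequences are shown because the family divides in 1 way by seed and in another by gene location. Each is written 5′ to 3′ as RefSeq gives it, with the seed, bases 2 to 8, in capitals, and all 5 members matched the table.
miR-200b: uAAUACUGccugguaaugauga
miR-200a: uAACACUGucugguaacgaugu
miR-429: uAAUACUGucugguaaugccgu
miR-200c: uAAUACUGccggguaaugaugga
miR-141: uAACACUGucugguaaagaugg

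On GRCm38.p6, miR-200b (chr4:156055685-156055706), miR-200a (chr4:156054911-156054932) and miR-429 (chr4:156053916-156053937) lay on the minus strand within 1846 bases. Their hairpins were inside the span of the long non-coding gene Gm13648, between the protein-coding genes Ttll10 and 9430015G10Rik. The hairpins of miR-200c (chr6:124718324-124718346) and miR-141 (chr6:124717917-124717938) were on the minus strand of another chromosome within 477 bases, between Phb2 and Ptpn6 and inside the span of no annotated gene. The seed AAUACUG was carried by miR-200b, miR-429 and miR-200c, and the seed AACACUG by miR-200a and miR-141. Each genomic cluster therefore held both seeds. Over their first 22 bases miR-200b and miR-200c differed at 2 positions, and so did miR-200a and miR-141. The panel's probe sequences were not used here, so how far a probe for 1 member counts another is not known.

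Values below are normalized counts, which put each sample on a common scale through its most abundant miRNAs (geometric mean), unless called counts. A miRNA was taken as above background where its count exceeded the mean plus 2 SD of the 8 negative hybridization controls of its sample. Tissue samples had 70164 to 598321 mouse miRNA counts in all, and plasma samples 18350 to 269005. Since probes differ in efficiency, levels of different members are not ranked against each other. Counting error weighs most on the members near background in M1, M3 and most plasma samples.

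The uninduced tube held the family at a steady level. miR-200c was at 4154, 4537, 4118, 4073 and 4935 in CT1 to CT5, a mean of 4364 ± 369 (SD, n = 5). miR-200b had a mean of 2798 ± 282, miR-200a of 1294 ± 128 and miR-429 of 1065 ± 184. miR-141 was at 402, 301, 443, 419 and 546, a mean of 422 ± 87.6. The highest control exceeded the lowest by 1.21-fold for miR-200c and by 1.81-fold for miR-141, which had the widest spread of the 5. The members together made up 4.91% to 6.61% of all miRNA counts in the controls. Every member was above background in every CT and FT sample.

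**Figure D1:**
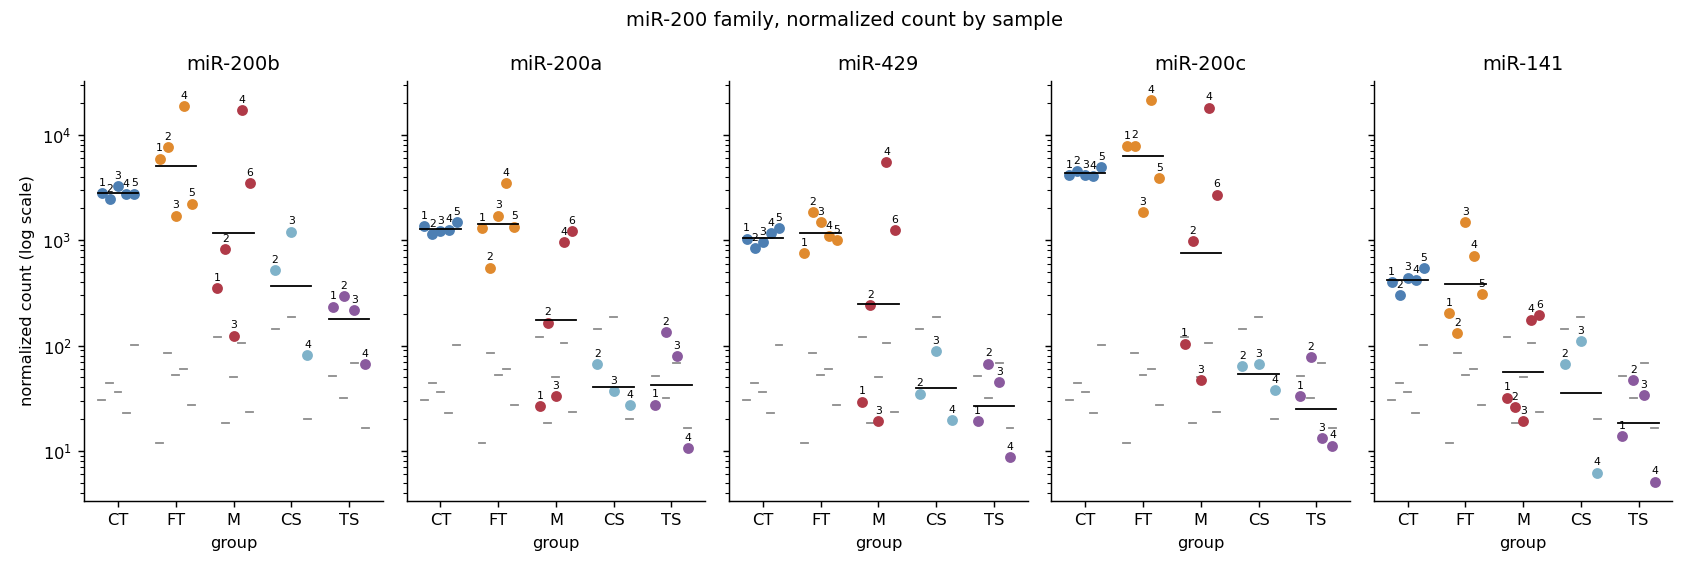
Normalized count of each member (log axis) in each sample, by group. Points are samples with their replicate numbers, black lines are geometric means and short grey lines are each sample's background level, the mean plus 2 SD of its negative controls. The CT points of each member lie within 1.81-fold of each other, while the M points of miR-200c run from 18142 in M4 down to background in M3.

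FT against CT asks how the family stood in the tube after induction. All members stayed on, no member passed the test, and the spread was much wider than in the controls. miR-200b was at 5948, 7698, 1714, 18734 and 2221 in FT1 to FT5, a mean of 7263 ± 6887 (SD, n = 5). miR-200c was at 7765, 7919, 1848, 21362 and 3877, a mean of 8554 ± 7614. For both, FT1, FT2 and FT4 were above every control, and FT3 and FT5 were below every control, in normalized counts. By share of all miRNA counts, which needs no scaling, the order differed. The 5 members together made up 7.65%, 4.37%, 5.10%, 10.6% and 4.90% in FT1 to FT5, against 4.91% to 6.61% in CT. By this share FT2 and FT5 were below every control, and FT3 was within the control range. miR-141 was at 205, 130, 1483, 714 and 307, with FT3 and FT4 above every control and FT1 and FT2 below. miR-200a was at 1303, 550, 1714, 3483 and 1344, and miR-429 at 755, 1855, 1489, 1099 and 994. The coefficient of variation ran from 35.1% (miR-429) to 98.4% (miR-141) in FT, against 8.46% to 20.7% in CT.

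edgeR's quasi-likelihood test called 0 of the 5 members between FT and CT, beside 0.177% of all mouse miRNAs tested. The log2 fold change of miR-200b was 1.38 (SE 0.663, adjusted p = 0.673 in edgeR), and it was the 1 member with an unadjusted p under 0.05 in edgeR (0.0483), beside 7.24% of all miRNAs. The other log2 fold changes in edgeR lay between 0.22 for miR-429 and 0.97 for miR-200c, with adjusted p from 0.759 to 0.872. The median over the members was 0.43 and over all miRNAs 0.15. The exact permutation test of mean log2 levels gave p = 0.190 for miR-200b (difference 0.86) and 0.484 for miR-200c (difference 0.52), two-sided. miR-141 had opposite signs by the 2 measures, 0.43 by edgeR and -0.10 as a difference of mean log2 levels.

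FT3 stood apart from the other tubes in its balance of members. Its counts of miR-200b, miR-200a, miR-429, miR-200c and miR-141 were 793, 793, 689, 855 and 686, all within 1.25-fold. In each control the highest member exceeded the lowest by 9.04-fold to 15.1-fold, and in the other FT samples by 12.6-fold to 60.8-fold. FT3 had a total of 74888 miRNA counts, the lowest of the FT samples, and the part of depth in its balance was not tested.

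M against CT asks how the family stood in metastatic tumors. The 5 tumors fell far apart. M1 and M3 held the family at or near background, M2 was intermediate, M6 was near the controls for 3 members, and M4 held miR-200b, miR-200c and miR-429 above every control. miR-200c was at 104, 978, 47, 18142 and 2708 in M1, M2, M3, M4 and M6, a mean of 4396 ± 7759 (SD, n = 5). miR-200b was at 353, 825, 124, 17226 and 3510, and miR-429 at 29, 241, 19, 5510 and 1255. M4 exceeded M3 by 139-fold for miR-200b. In M3 miR-200c and miR-429 were not above background, and against the background level of M3 the level in M4 was at least 361-fold higher for miR-200c and at least 110-fold higher for miR-429. In these bulk samples fewer epithelial cells and less RNA per cell cannot be told apart.

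The members with the seed AACACUG were not raised in M4. miR-200a was at 27, 165, 33, 955 and 1224, so 4 of 5 tumors were below the lowest control and M6 was among the controls. miR-141 was at 32, 26, 19, 176 and 194, and all 5 tumors were below the lowest control, 301. Its mean was 89.7 ± 87.8 (SD, n = 5) against 422 ± 87.6 in CT.

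miR-141 fell, with a log2 fold change of -2.22 (SE 0.636, adjusted p = 0.0257 in edgeR). It was the 1 member of 5 called, beside 14.5% of all miRNAs called in either direction and 4.24% called lower. It was also the 1 member whose groups did not overlap, beside 12.5% of all miRNAs. The exact permutation test gave p = 0.00794 for miR-141, the smallest that 5 against 5 samples allow, and 0.0633 after adjustment over all mouse miRNAs. The call was lost without CT1 (adjusted p = 0.0517 in edgeR), without CT3 (0.0540) and without CT4 (0.0538). Over 22 alternative settings the adjusted p ran from 0.000474 to 0.123 and the call held in 16, always with a negative log2 fold change.

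For the other members the direction depended on how the 5 tumors were averaged. edgeR, whose group means follow the highest samples, gave log2 fold changes of 0.66 for miR-200b (adjusted p = 0.621), 0.41 for miR-429 (0.789) and 0.01 for miR-200c (0.995). The difference of mean log2 levels was -1.25 for miR-200b, -2.06 for miR-429 and -2.53 for miR-200c, with exact permutation p of 0.357, 0.302 and 0.151, two-sided. Without M4, edgeR gave -1.21, -1.45 and -2.18 for the same 3 members. miR-200a was negative by both measures, with -1.43 in edgeR (adjusted p = 0.242) and -2.85 as a difference of mean log2 levels, for which the exact permutation p was 0.0238 and 0.130 after adjustment over all miRNAs. The median over members was 0.01 by edgeR and -2.53 by mean log2, against 0.29 and 0.18 over all miRNAs.

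**Figure D2:**
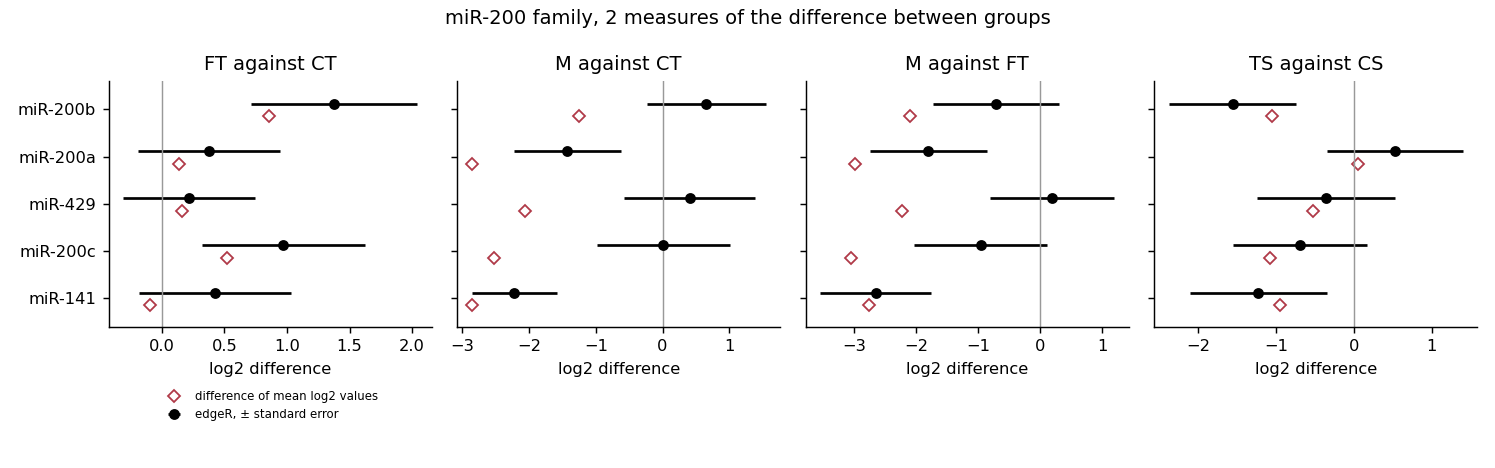
Difference between groups for each member on the log2 scale in the 4 comparisons. Black circles are edgeR log2 fold changes with standard errors, and red diamonds are differences of mean log2 normalized counts. In M against CT the 2 measures lie on opposite sides of 0 for miR-200b and miR-429, and both lie below -2 for miR-141.

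Detection gave the same division of the tumors without any scaling. M2, M4 and M6 had all 5 members above background, and M1 and M3 had only miR-200b. The counts in M1 were 132 for miR-200b, 10 for miR-200a, 11 for miR-429, 39 for miR-200c and 12 for miR-141. Those in M3 were 45, 12, 7, 17 and 7 in the same order. M1 had a total of 103222 miRNA counts and M3, the shallowest tissue sample, 70164, and the part of depth in these values was not tested. The family made up 0.198% of miRNA counts in M1, 0.948% in M2, 0.125% in M3, 14.1% in M4 and 4.16% in M6. M1 and M3 were the tumors with Brca2 -/-, and with 2 such samples no test was made.

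M against FT compares the tumors with the induced tubes. No member was called in edgeR, beside 1.59% of all miRNAs. miR-141 had a log2 fold change of -2.65 (SE 0.889, adjusted p = 0.153 in edgeR) and miR-200a of -1.80 (adjusted p = 0.668). The exact permutation p was 0.0317 for miR-141 and 0.0476 for miR-200a, and after adjustment over all miRNAs these became 0.642 and 0.749. miR-141 passed the edgeR threshold without FT2 (adjusted p = 0.0283). M against CT and M against FT share the tumor samples, and M against CT shares the controls with FT against CT.

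The ratio of members within a sample needs no scaling, and was set out by seed and by gene location. In the controls every ratio was tight, with an SD of the log2 ratio from 0.14 to 0.30 over the 10 pairs. Over all 15 tissue samples the tightest pair was miR-200b and miR-200c, which share a seed and lie on different chromosomes, with an SD of 0.77. miR-200a and miR-141, likewise seed mates on different chromosomes, followed at 0.89, and miR-429 and miR-200c at 0.91. The 1 pair that shares both seed and cluster, miR-200b and miR-429, was wider than these at 1.02, as wide as miR-200a and miR-429, which share only the cluster (1.02). The widest was miR-200c and miR-141, neighbours in the shorter cluster with different seeds, at 1.74. The median over the 3 pairs of the same seed on different chromosomes was 0.89, and over the 3 pairs of the same cluster with different seeds it was 1.23. For comparison, the median over all 9870 pairs of miRNAs with a mean tissue count of at least 50 was 1.80. These spreads are descriptions, since the pairs share members and samples. The 2 tightest pairs are also the ones that differ at only 2 of their first 22 bases. Whether the probe for 1 of them counts the other was not tested.

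The values behind these spreads show where neighbours parted. The ratio of miR-200b to miR-200c counts was 0.542 to 0.788 in CT, 0.573 to 0.972 in FT and 0.844 to 1.30 in the 3 tumors with all members above background. The ratio of miR-200c to miR-141 was 9.04 to 15.1 in CT, 1.25 to 60.8 in FT and 13.9 to 103 in the same tumors. FT3 gave the lowest of these values and M4 the highest. The ratio of miR-200a to miR-141 was 2.71 to 3.81 in CT, 1.16 to 6.36 in FT and 5.41 to 6.32 in the 3 tumors.

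In the 13 samples with all members above background, the SD was 0.37 for miR-200b and miR-200c and 1.60 for miR-200c and miR-141. There miR-200b and miR-429, which share both seed and cluster, had 0.947, just below miR-429 and miR-200c at 0.955. With a pseudocount of 10 over all tissue samples miR-200b and miR-429 were also the tighter of these pairs (0.914 against 0.972). The median stayed lower for the seed mates than for the cluster mates in all 20 alternatives tried, which were chosen after seeing the data. The 3 pairs of each kind did not overlap in 17 of the 20. The tightest pair was miR-200b and miR-200c in 17 of the 20, and without M4 it was miR-200a and miR-429. Within the controls alone this order by kind of pair was not seen. The SDs there were 0.22, 0.21 and 0.24 for the seed mates on different chromosomes. For the pairs of the same cluster with different seeds they were 0.15, 0.18 and 0.30. The tightest pair in the controls, miR-200a and miR-200c (0.14), shared neither.

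**Figure D3:**
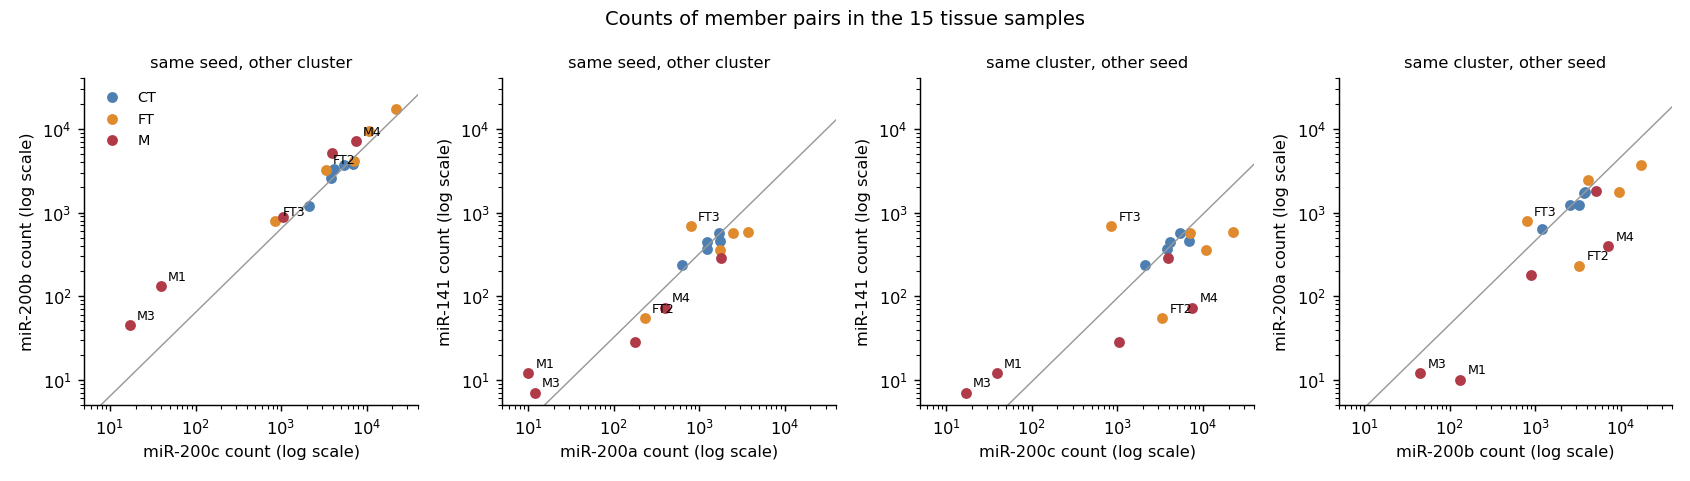
Counts of 4 member pairs in the 15 tissue samples, both axes log. Colours are groups, and the grey line is the mean ratio of the controls. The points of miR-200b and miR-200c stay near the line in all but M1 and M3, while FT2, FT3 and M4 lie far from it for miR-200c and miR-141.

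**Figure D4:**
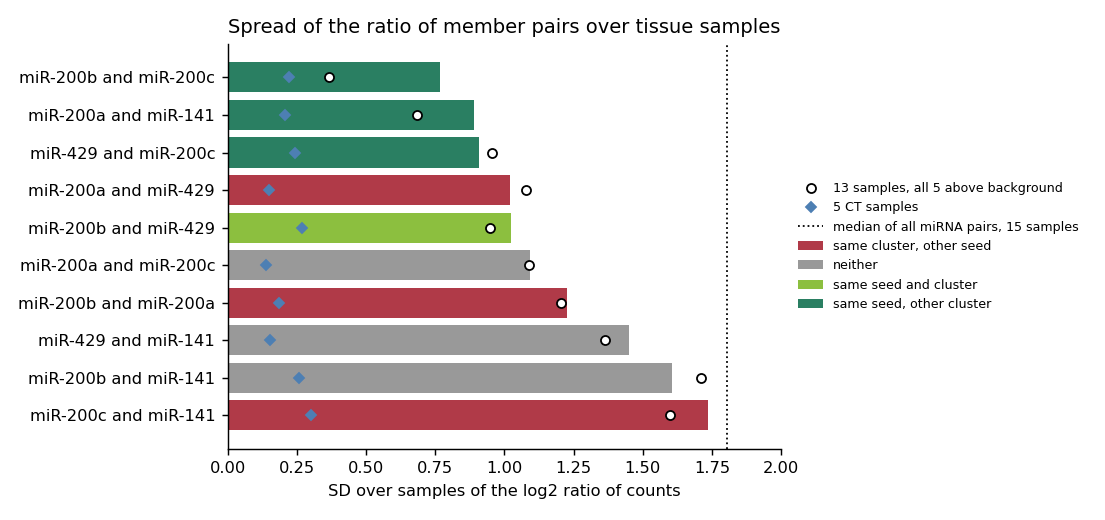
SD of the log2 ratio of counts for the 10 member pairs over the 15 tissue samples (bars), over the 13 samples with all members above background (circles) and over the 5 controls (diamonds). The dotted line is the median of all miRNA pairs over the 15 samples, 1.80. The 3 pairs with a shared seed on different chromosomes have the shortest bars.

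The mean log2 level of the miR-200b, miR-200a and miR-429 cluster minus that of the miR-200c and miR-141 cluster compares the loci within each sample. It is not free of the seeds, since AACACUG is carried by miR-200a among 3 members and by miR-141 among 2. The mean log2 level of the AAUACUG members minus that of the AACACUG members averaged 1.68 in CT, 2.17 in FT and 2.60 in M. The part of the seeds in the cluster difference was not tested. The cluster difference was 0.09 to 0.29 in CT. In FT1 to FT5 it was 0.51, 0.97, -0.02, 0.09 and 0.40. In M it was lowest in M1 at 0.17, 0.51 in M3, and highest in M6 at 1.27 and M4 at 1.33, with M2 between these pairs. The mean cluster difference was higher by 0.64 in M than in CT and by 0.18 in FT than in CT, as a description with no test. In M1 and M3 most of its terms were at background.

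Other miRNAs known from particular cell types were read beside the family. Of the 7 other epithelial miRNAs (miR-183, miR-96, miR-182, miR-203, miR-205, miR-375 and miR-31), 1 rose in M against CT and 0 fell. Their summed level was 626 to 1196 in CT and 132 to 14149 in M, lowest in M1 and M3, and 1 of the 7 was above background in no M sample. The riser was miR-205, a marker of squamous and basal epithelium, with a log2 fold change of 4.20 (SE 1.23, adjusted p = 0.0288 in edgeR). This call was lost in 5 of the 10 fits that left out 1 sample, without CT1, CT2, CT3 or CT4 (adjusted p from 0.0591 to 0.0801 in edgeR) and without M6, where the log2 fold change was 1.48 (adjusted p = 0.211). Its counts were 16 in M1, 1593 in M2, 10 in M3, 124 in M4 and 19706 in M6. miR-375, an epithelial miRNA of secretory and endocrine cells, had 2060 counts in M4 and between 5 and 31 in the other tumors. M1 and M3 were thus low for the family and for miR-205, while miR-375 was low in every tumor but M4. M4 and M6 were high for different epithelial miRNAs. Of the rest of the list, miR-183, miR-203 and miR-31 were above background in M2 but in neither M1 nor M3. Their counts in M2 were 26, 59 and 42. The background level was 19.7 counts in M2, 44.7 in M1 and 18.3 in M3, so miR-183 and miR-31 would not have passed that of M1. M2 also had 253094 miRNA counts in all, against 103222 in M1 and 70164 in M3. The part of background and depth in this contrast was not tested. miR-182 was above background in no tumor and miR-96 in M6 alone, so these did not set M1 and M3 apart from M2.

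The ciliated cells of the tube are marked by the miR-34b/c and miR-449 families. Of their 5 probes on the panel (6 listed), 4 fell in M against CT, namely miR-449a, miR-34c and both arms of miR-34b, and none of the 5 was above background in any tumor. Both arms of miR-34b were above background in all 5 controls, miR-34c and miR-449a in 3 each and miR-449b in 0. In CT2 and CT5 miR-34c had a count of 1, as in every tumor. The call of miR-449a was lost without CT1 (adjusted p = 0.0517 in edgeR). The list summed to 312 to 3767 in CT and to 27.9 to 88.3 in M. Of the 5 smooth muscle and stromal miRNAs, miR-1, miR-143 and miR-145 fell, and the list summed to 4713 to 13280 in CT and 626 to 3821 in M. Leaving out 1 sample lost the call of miR-1 in 8 of 10 fits (all but those without CT5 or M4) and that of miR-145 in 6 of 10 (without CT1, CT2, CT3, CT4, M2 or M3), with adjusted p in edgeR up to 0.0970 and 0.122, while miR-143 kept its call in all 10. Of the 5 leukocyte miRNAs miR-223, a myeloid miRNA, rose, and the list summed to 593 to 1164 in CT and 967 to 6301 in M. The 3 mesenchymal miRNAs of the miR-199a and miR-214 group had no call, with sums of 1907 to 3526 in CT and 404 to 13654 in M. Of the 4 erythrocyte miRNAs miR-486 rose, with list sums of 2881 to 4771 in CT and 2233 to 14358 in M. Of the 2 endothelial miRNAs miR-126-3p rose, a call lost without CT1 or CT4 (adjusted p of 0.0540 and 0.0516 in edgeR), while miR-126-5p had a log2 fold change of -0.83 (adjusted p = 0.274 in edgeR), and the list summed to 4224 to 6683 in CT and 7887 to 19897 in M. Of the 3 liver miRNAs miR-122 rose, with list sums of 66.2 to 93.7 in CT and 64.2 to 587 in M. The calls in these lists came from the same 5 tumors in which miR-141 fell, and the part of the lists in that result was not tested. In FT against CT the 1 call among all lists was miR-122, which rose, a call lost without CT2 or CT3 (adjusted p of 0.0611 and 0.0685 in edgeR). miR-122 was above background in 0 of 5 CT and 3 of 5 FT samples, with a median of 31.8 and a maximum of 1269 in FT. The liver list summed to 1342 in FT3 and to between 68.4 and 233 in the other FT samples. The call of miR-122 was kept without FT3.

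**Figure D5:**
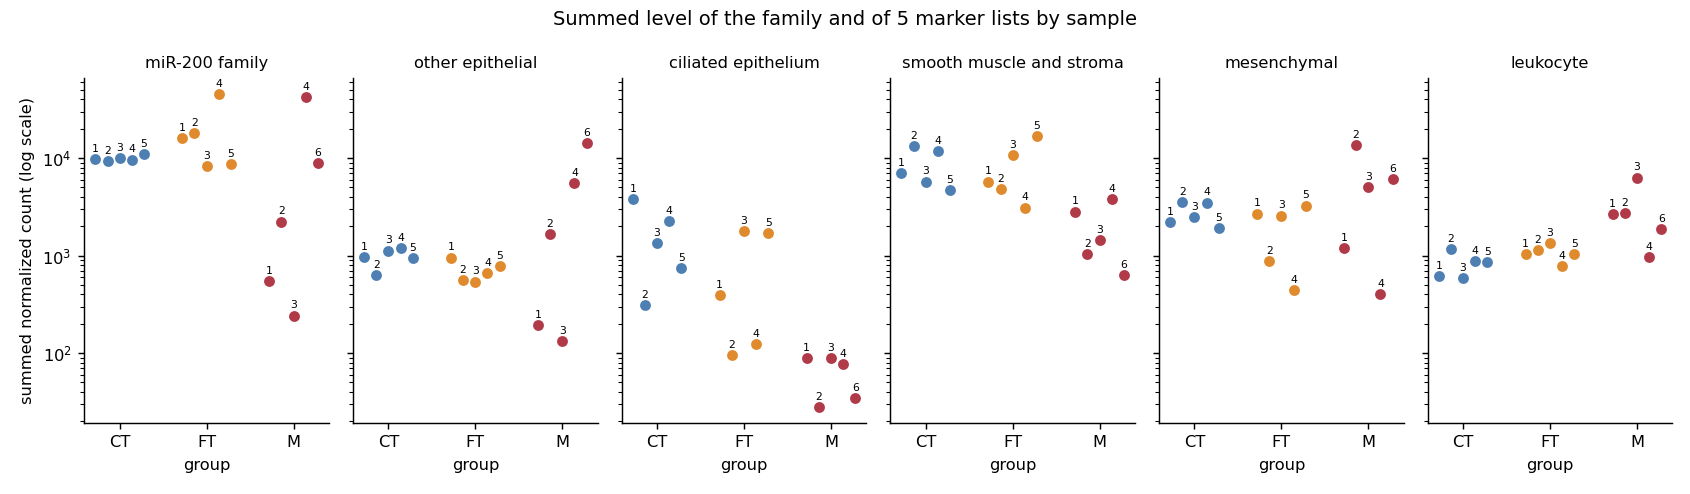
Summed normalized count (log axis) of the family and of 5 marker lists in each CT, FT and M sample. Points are samples with their replicate numbers. M1 and M3 are lowest for both the family and the other epithelial miRNAs, and all M samples are below all CT samples for the ciliated list.

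Likeness to the family was measured as Pearson's r between each miRNA and the mean log2 level of the 5 members over the 15 tissue samples, among those with a mean tissue count of at least 50. The median r over those miRNAs was -0.10. The members, each a part of the mean they were compared with, had r from 0.84 (miR-141) to 0.97 (miR-200c). The non-members most like the family were miR-1 (0.85, above miR-141), miR-375 (0.73), miR-135a (0.69), miR-99a (0.66) and miR-30a (0.62). Those most unlike it were miR-335-5p (-0.84), miR-132 (-0.81) and miR-223 (-0.81). The samples share groups and scaling, so these values describe co-variation over the 3 tissue groups. The mean of miR-1, a muscle miRNA, was 359 ± 102 in CT, 502 ± 305 in FT and 67.4 ± 106 in M (SD, n = 5 each). The myeloid miR-223 ran the other way, with 128 ± 38.6 in CT and 1542 ± 1400 in M.

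TS against CS asks whether the family differed in plasma, where RNA input was 10 ng against 100 ng for tissue. Most members were at background there. miR-200b was above background in all 7 plasma samples, at 521, 1204 and 81 in CS2 to CS4 and at 234, 297, 216 and 67 in TS1 to TS4. Its counts were 164, 163 and 195 in CS and 170, 273, 115 and 131 in TS, so the groups overlapped by either measure. miR-429 and miR-141 were above background in 0 of 3 CS samples and in 1 of 4 TS samples. That sample was TS2, from the mouse of FT3, which had all 5 members above background with 273 counts of miR-200b, 123 of miR-200a, 62 of miR-429, 72 of miR-200c and 43 of miR-141. TS2 also had 652 counts of miR-375, against 7 to 27 in the other TS samples.

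edgeR called 0 of the 5 members in plasma, beside 0% of all miRNAs, where 42 had an unadjusted p under 0.05 and DESeq2 called 6. The log2 fold change of miR-200b was -1.56 (adjusted p = 0.542 in edgeR) and that of miR-141 was -1.22 (0.570), while the median over all mouse miRNAs was -0.89. The exact permutation test gave p = 0.4 for miR-200b, and 4 against 3 samples cannot give less than 0.0571. At 18350 to 269005 counts a difference in the members near background was not detectable. TS3 and TS4 came from the mice of FT4 and FT5, and the high miR-200b of FT4 (18734) stood beside 216 in TS3, on scales set separately for tissue and plasma.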

How the data were processed

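The authors deposited nCounter mouse miRNA v1.5 barcode counts, whole numbers not normalized, for 22 samples. Their methods scaled tissue to the geometric mean of the top 100 miRNAs, without background subtraction, and plasma to the top 30 in nSolver 3.0. The same scaling was recomputed here from the counts, over the mouse miRNA probes, and the other 60 of 626 probes entered no test. Scaling assumes that the top miRNAs are level between groups, so a broad shift moves every fold change.

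Each comparison was fitted on its 2 groups with edgeR 4.0.16 (R 4.3.3, quasi-likelihood, Benjamini-Hochberg over all mouse miRNAs, threshold 0.05), with the geometric means as library sizes. Single members were also compared by a two-sided exact permutation test of mean log2(normalized count + 1) over 252 splits (5 against 5) or 35 (4 against 3). Alternatives used limma 3.58.1, DESeq2 1.42.0, the methods' t-test, other scalings, count minimums of 20 and 50, control subtraction and leaving out each sample. The fit was tested on simulated data. Named were the 5 members, the cell type lists, and the 5 most and 3 least like miRNAs by r. Members and lists were chosen with earlier results of these data known. Sequences and coordinates came from RefSeq on GRCm38.p6. Plasma and tissue were not tested against each other. The alleles recombined beside Brca1 and Brca2 are not reported here.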

Additional observations from a re-analysis of the deposited data

Results flagged for a closer look

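In the plasma of tumor-bearing mice, the difference between the 2 genomic clusters was 2.12 in TS3, while the other 3 samples lay between 1.20 and 1.28. The gap from TS3 to its nearest neighbour was 0.911 of the whole range of the group, which set it apart. In TS3 miR-200c had 7 counts and miR-141 had 18, both at background. Of 28 sets of values examined in this way this was the 1 found, and chance alone picks out about 1 in 20.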

How the results depend on the processing

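Fitted separately under each alternative, the number of members called in M against CT was 1 in the reported fit, 0 with miR-425 scaling, with the methods' t-test and with CT, FT and M fitted together, and 2 with limma at a pseudocount of 1 or 10. Leaving out each sample gave 0 to 1. In M against FT it was 0, and 1 with the groups fitted together, and leaving out each sample gave 0 to 1. The member that limma added in M against CT was miR-200a, with adjusted p of 0.0456 and 0.0483 in limma at pseudocounts of 1 and 10. Calls over all mouse miRNAs in that comparison ran from 32 to 184 over the 22 alternatives, limma among them. The limma totals are not given here, so its 2 members were not set against a general rate.

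Over all mouse miRNAs the count of calls in FT against CT was 1 as reported, 2 with TMM and with median scaling, 6 with DESeq2, 4 with the negative controls subtracted, and 0 with miR-425 scaling, limma at either pseudocount, the t-test and either count minimum. Leaving out each sample gave 0 to 12. In M against CT it was 82. It became 151 when TMM set the scale, 138 under median scaling, 184 in DESeq2, 32 with the t-test, 152 with the controls subtracted and 52 fitted together, and 50 to 101 leaving out each sample. Of the M against CT calls 58 were higher and 24 lower, 83 and 68 with TMM, 59 and 79 with median scaling, and 70 and 10 with miR-425 scaling. In M against FT it was 9, against 2 with miR-425 scaling, 26 with DESeq2, 5 with limma at either pseudocount, 0 with the t-test and 23 fitted together, and 4 to 33 leaving out each sample. In TS against CS it was 0, and 6 with DESeq2.

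Replicate numbers did not pair the samples, since the correlations of same-numbered samples' deviations were of both signs in every comparison. With the replicate number as a block, calls numbered 0 in FT against CT, 69 in M against CT, 1 in M against FT and 96 in TS against CS, and 4 members, miR-200a, miR-429, miR-200c and miR-141, were called lower in M against CT. With the block, log2 fold changes turned to -0.13 for miR-141 in FT against CT, to -1.98, -2.89 and -3.38 for miR-200b, miR-429 and miR-200c in M against CT, and to -3.41 for miR-429 in M against FT.

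Other changes of direction were as follows, none of them with the member past the threshold under that setting. In FT against CT miR-141 was at -0.10 and -0.085 with limma at pseudocounts of 1 and 10 and at -0.10 with the t-test. It ran from -0.32 to 0.68 leaving out each sample, and miR-200a from -0.076 to 0.60. In M against CT miR-200b, miR-429 and miR-200c were at -1.25, -2.06 and -2.53 with limma at a pseudocount of 1, at -1.22, -1.88 and -2.46 at 10, and at -1.25, -2.08 and -2.54 with the t-test. miR-200c was also at -0.29 with TMM, -0.36 with median scaling and -0.32 with DESeq2. Leaving out each sample gave -1.21 to 0.97 for miR-200b, -1.45 to 0.72 for miR-429 and -2.18 to 0.33 for miR-200c. In M against FT miR-429 was at -0.15 with TMM, -0.041 with median scaling, -0.066 with DESeq2, -2.22 and -2.04 with limma and -2.25 with the t-test. Leaving out each sample gave -1.68 to 0.51 for miR-429 and -2.59 to 0.0040 for miR-200b. In TS against CS miR-429 was at 0.44 with TMM, 0.54 with DESeq2 and 1.12 with the controls subtracted, and miR-200c at 0.10 with DESeq2 and 0.45 with the controls subtracted. Leaving out each sample gave -0.92 to 0.40 for miR-429 and -0.17 to 0.99 for miR-200a. The causes were not tested, except that edgeR weighs M4 more than a mean of log2 levels does.

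The median SD of the log2 ratio over pairs of the same seed and other cluster was 0.89, against 0.68 in the 13 samples with all members above background, 0.46 without M1, M3 and FT3, and 0.98 with the controls subtracted. Leaving out each sample gave 0.73 to 0.92. Over pairs of the same cluster and other seed it was 1.23, and 1.64 with the controls subtracted. The difference between clusters kept its sign in every alternative. In plasma miR-141 could not be fitted at a minimum of 20, nor 4 members at a minimum of 50. Depth limits the members that lay at background in M1, M3 and plasma.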
